A study of Mus musculus with 2 samples.

Results

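The 36 genes described here encode Wnt ligands, their receptors and agonists, secreted antagonists and intracellular components of the pathway. They were taken from a list of names, not by a threshold on the peaks, and all 36 were found among the 21887 protein-coding genes of the RefSeq annotation of GRCm38 on chromosomes 1 to 19, X and Y. There were 10 Wnt ligand genes, 2 R-spondin genes, 12 receptor genes, 7 secreted antagonist genes and 5 intracellular genes. The study mapped the transcription factor RUNX2 on chromatin of MC3T3-E1 cells, an osteoblast precursor line from mouse skull, with CUT&Tag. In CUT&Tag an antibody brings a transposase to the protein on chromatin, and the enzyme cuts and tags the DNA beside it. All samples were untreated cells of this line and formed 1 group of 2 replicate libraries, with no control library and no second condition. The deposited lists held 26853 peaks for replicate 1 and 27287 for replicate 2, with position and width but no height, so read depth is unknown. The labels do not say whether the libraries came from separate cultures, so the spread between them may be technical. A peak list measures no RNA, and the cell type named in the labels was not checked against marker genes.

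Wnt proteins are secreted lipid-modified signals. In the canonical branch a Wnt bridges a Frizzled receptor and the coreceptor LRP5 or LRP6, which stops the Axin complex from destroying beta-catenin, and beta-catenin then acts with TCF and LEF factors in the nucleus. In bone, this branch promotes osteoblast formation, and RUNX2 is the factor that commits cells to the osteoblast lineage. DKK1 blocks the LRP coreceptors, SFRPs and WIF1 bind Wnts outside the cell, and AXIN2 and the NKD proteins restrain the signal inside it.

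A shared region here is a stretch where peaks of both replicates overlapped by at least 1 bp. Of the 36 genes, 26 (72.2%) had a shared region inside the gene or within 50 kb of either end, against 69.9% of all protein-coding genes, so the count for the whole group lay near the background. Within 10 kb, 21 genes (58.3%) had a region, against 52.8% of all, and inside the gene or across an end 14 (38.9%) had, against 41.4%. The place of the regions differed by role, in small groups of 2 to 12 genes. All 10 Wnt ligand genes had a region within 50 kb, yet none of the 10 had 1 within 1 kb of an end. Of the 12 receptor genes, 9 (75.0%) had a region, which is near the 69.9% of all protein-coding genes. For each of these 9 at least 1 region lay inside the gene or across its end. Shared regions were listed for 3 of the 7 secreted antagonist genes (42.9%), 3 of the 5 intracellular genes (60.0%) and 1 of the 2 R-spondin genes. The median gene length was 44.2 kb for receptor, 38.2 kb for secreted antagonist and 20.8 kb for ligand genes. Their median distances to the next protein-coding gene were 21.0, 54.6 and 16.1 kb. Whether length or spacing has a part in the differences by role was not tested. Within 1 kb of a gene end, 5 of the 36 genes (13.9%) had a region, against 33.3% of all protein-coding genes, and all 5 were receptor genes. No test was made of these differences, because the series has a single group and genes are not replicates.

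**Figure D1:**
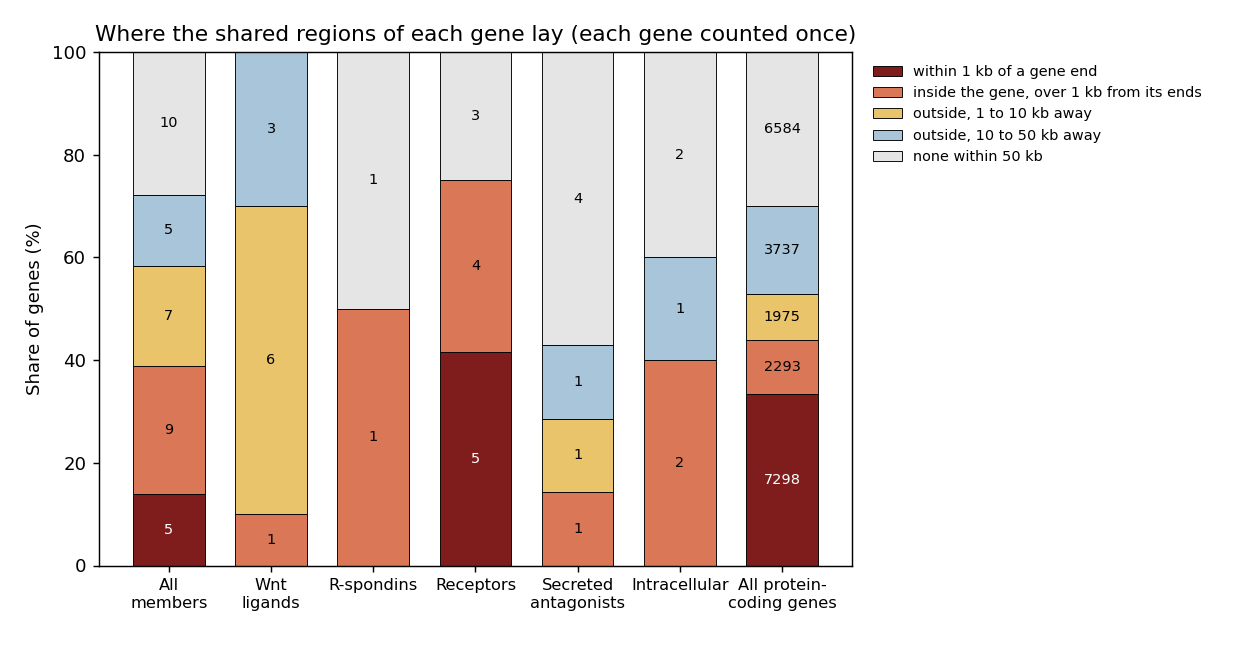
Bars give the share of genes (%) in 5 classes, each gene counted once in the first class that applied, from a shared region within 1 kb of a gene end (dark red) to none within 50 kb (grey), and numbers in the bars are genes. The 5 genes of the dark red class are all receptors, the ligands lie mostly in the classes outside the gene, and 4 of 7 secreted antagonists have no region.

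In all, 64 different shared regions lay in the windows of these genes, with a median of 2 per gene, as for all protein-coding genes. The mean was 1.83 regions per gene for these genes, against 1.98 for all. The median gene length was 30.6 kb, against 17.2 kb for all, and the median distance to the next protein-coding gene was 18.1 kb, against 5.3 kb. Of the 64 regions, 38 had the end of 1 of the 36 genes as their nearest protein-coding gene end, and 26 lay nearer to another gene. Counted by gene, 27 of the 36 (75.0%) were nearest to at least 1 shared region at any distance, against 45.3% of all protein-coding genes, and 23 (63.9%) within 50 kb, against 43.2%. Whether the wider spacing of these genes has a part in this count was not tested. The regions lay within 1 kb of some protein-coding gene end in 29.7% of cases (95% Wilson interval 19.9 to 41.8), against 39.5% (38.8 to 40.3) of the 15917 shared regions within 50 kb of any protein-coding gene. These intervals cover counting error only.

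**Figure D2:**
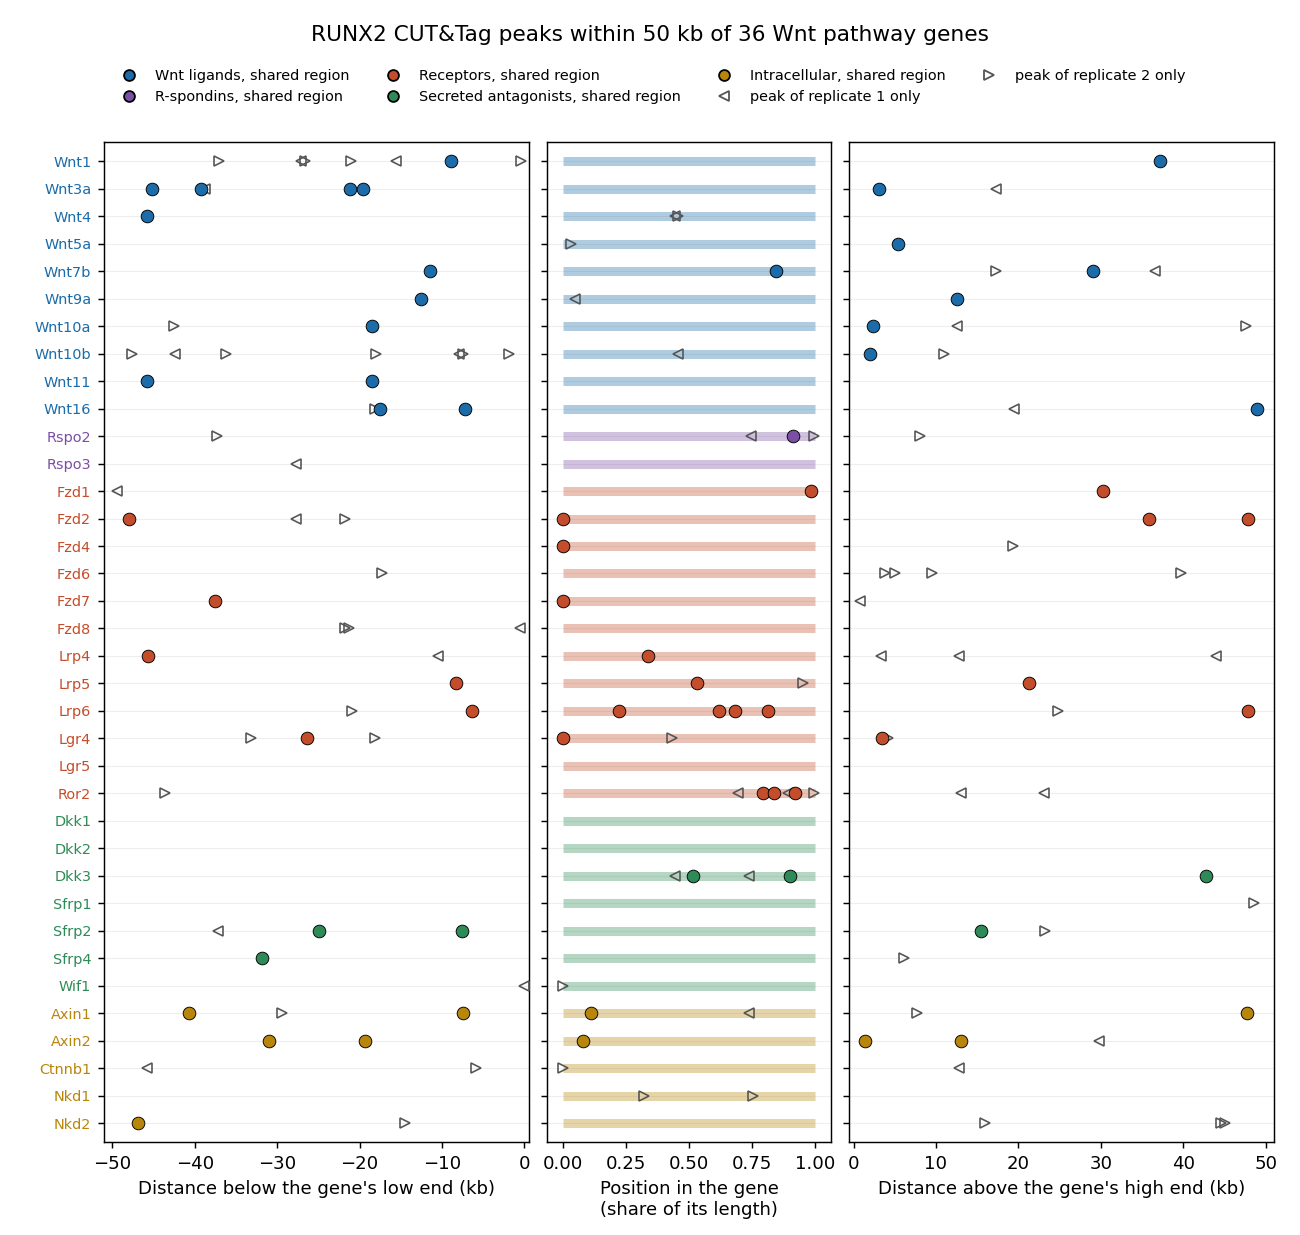
Each row is a gene, with distance below its low end (kb, left), position within the gene as a share of its length (middle) and distance above its high end (kb, right), low and high referring to genome coordinates. Filled circles are shared regions and open triangles are peaks of 1 replicate. Fzd1, Fzd2, Fzd4, Fzd7 and Lgr4 each have a circle at a gene end, and all of these but Fzd4 also have circles outside the gene. The circles of the Wnt ligands sit outside the genes, apart from the region inside Wnt7b.

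In the windows the peaks of the replicates overlapped only in part. Replicate 1 had 95 peaks in them, of which 64 (67.4%, 95% Wilson interval 57.4 to 76.0) overlapped a replicate 2 peak, against 68.2% of its whole list. Replicate 2 had 112, of which 65 (58.0%, 48.8 to 66.8) overlapped a replicate 1 peak, a smaller share than the 67.2% of its whole list. The intervals treat peaks as independent, though several peaks without a partner lay near the same gene. The peaks without a partner were narrower. In replicate 1 their median width was 300.0 bp, against 462.5 bp for the overlapped ones, and in replicate 2 it was 229.0 bp, against 442.0 bp. Only 4 of the 31 partnerless peaks of replicate 1 and 5 of the 47 of replicate 2 lay within 1 kb of a peak of the other list.

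Among the Wnt ligand genes, Wnt10a carried the widest region. WNT10A is a canonical ligand with known roles in tooth and hair development. Its region on chromosome 1, from 74806498 to 74808350 (GRCm38), began 2322 bp above the high end of the gene. The peaks there measured 1826 bp (replicate 1) and 1776 bp (replicate 2), which placed it 9th of 18128 shared regions by mean rank of width. A second region, from 74772942 to 74773525, lay 18.5 kb below Wnt10a and nearer to Wnt6, with peaks of 343 and 522 bp. The replicates thus gave nearly the same width for the first region, and no other of the 64 regions was as wide in either list.

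Wnt11 came next. WNT11 signals largely through beta-catenin-independent branches. The gene had 2 regions on the low side of chromosome 7, and no peak of either replicate lay inside it or in the 50 kb above it. The nearer one, from 98815424 to 98816607, lay 18.5 kb from Wnt11, with peaks of 1184 bp in replicate 1 and 980 bp in replicate 2, wider than 98.6% and 95.8% of their lists. The farther one, 45.7 kb away, had peaks of 415 and 319 bp. Wnt11 lies on the plus strand in the promoter table, so both regions were upstream of it, and no protein-coding gene end was nearer to either.

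Wnt1 and Wnt10b, neighbouring genes on chromosome 15, shared a region. WNT1 is a ligand whose loss of function causes early-onset osteoporosis and brittle bones in humans, and WNT10B promotes osteoblast over fat cell formation in mice. The region, from 98780229 to 98780992, lay between them, 2023 bp from the high end of Wnt10b and 8865 bp from the low end of Wnt1. Its peaks measured 671 and 764 bp. Wnt10b is on the minus strand and Wnt1 on the plus strand, so the region was upstream of both. Within 50 kb of Wnt10b there were also 3 peaks of replicate 1 and 6 of replicate 2 without a partner. One of these, in replicate 2, was 318 bp wide and lay 370 bp from the low end of Wnt1, and replicate 1 listed none there. The second region of Wnt1, 37.1 kb above it, lay across an end of Prkag1.

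Wnt3a and Wnt9a, neighbours on chromosome 11, likewise shared a region. WNT3A is a canonical ligand, and WNT9A acts in joint and cartilage development. The region, from 59293833 to 59294249, was 3082 bp from Wnt3a and 12.6 kb from Wnt9a, with peaks of 397 and 391 bp. Wnt3a is on the minus strand and Wnt9a on the plus strand, and this region too was upstream of both. Wnt3a had 5 regions in all, 1 of only 3 of the 36 genes with 5 or more (8.33%, against 11.3% of all protein-coding genes). The other 4, 19.6 to 45.2 kb below Wnt3a, all lay nearer to the ends of Arf1, 2310033P09Rik and Mrpl55. Beyond its high end, Wnt9a had a region 12.5 kb away, with peaks of 440 and 260 bp.

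The remaining ligand genes had from 1 to 3 regions. Wnt16, which encodes a ligand that limits cortical bone loss in mice, had a region 7.2 kb below its low end, upstream on the plus strand, with peaks of 708 and 497 bp. Its 2 others were nearer to Cped1 and Fam3c. Wnt7b, which encodes a ligand expressed in the osteoblast lineage, had 3 regions, and the 1 from 85574453 to 85574828 was the sole shared region inside any of the 10 ligand genes. Its peaks were narrow, at 280 bp in replicate 1 and 331 bp in replicate 2. Wnt5a, which encodes the main ligand of the ROR2 receptor, had 1 region 5395 bp above its high end, with peaks of 487 and 321 bp. Wnt4 had 1, 45.8 kb away, with narrow peaks of 176 and 229 bp. Inside Wnt4 each replicate had a peak of its own, of 177 bp (replicate 1) and 163 bp (replicate 2), and they lay 62 bp apart without overlapping.

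R-spondins are secreted agonists that raise the amount of Frizzled and LRP receptors at the cell surface. Rspo2 (chromosome 15) had 1 shared region, inside the gene from 43158060 to 43158803, with peaks of 744 bp in replicate 1 and 405 bp in replicate 2. Replicate 2 also had a peak of 250 bp 727 bp inside the high end of Rspo2. Rspo3 had no shared region within 50 kb. A single peak of replicate 1 lay 27692 bp from Rspo3, and the nearest shared region was 139.6 kb away.

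Frizzled proteins are the cell surface receptors that bind Wnts. Of the 6 genes studied, Fzd1, Fzd2, Fzd4 and Fzd7 had a shared region across an end of the gene, and Fzd6 and Fzd8 had no shared region within 50 kb. Of the receptor genes, Lgr4, which encodes an R-spondin receptor, was the fifth with a region across an end. The promoter table held an annotated start for 20 of the 36 genes, 5 of them receptors. A shared region covered the start of 5 of these 20 (25.0%), against 30.2% of the protein-coding genes in the table. These were Fzd1, Fzd4, Fzd7, Lgr4 and the feedback gene Axin2.

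The 250 bases before these 5 starts are shown because a shared region covered the start. The sequences are RefSeq's (GRCm38.p6), 5′ to 3′ in the direction of transcription, and the start follows the last base. Capitals mark CCAAT and GGGCGG (the GC box) on either strand.
Fzd7 (chr1:59481897-59482146, plus strand): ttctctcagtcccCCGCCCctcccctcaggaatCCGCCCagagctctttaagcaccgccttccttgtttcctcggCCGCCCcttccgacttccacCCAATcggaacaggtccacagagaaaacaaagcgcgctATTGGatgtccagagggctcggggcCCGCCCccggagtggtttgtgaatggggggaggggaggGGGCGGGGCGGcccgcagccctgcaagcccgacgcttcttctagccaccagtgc
Fzd1 (chr5:4758217-4758466, minus strand): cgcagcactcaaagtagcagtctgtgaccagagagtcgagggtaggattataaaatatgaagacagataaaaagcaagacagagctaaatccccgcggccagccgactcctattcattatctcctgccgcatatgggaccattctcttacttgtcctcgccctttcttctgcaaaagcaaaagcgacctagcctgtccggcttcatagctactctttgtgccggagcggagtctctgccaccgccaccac
Fzd4 (chr7:89404116-89404365, plus strand): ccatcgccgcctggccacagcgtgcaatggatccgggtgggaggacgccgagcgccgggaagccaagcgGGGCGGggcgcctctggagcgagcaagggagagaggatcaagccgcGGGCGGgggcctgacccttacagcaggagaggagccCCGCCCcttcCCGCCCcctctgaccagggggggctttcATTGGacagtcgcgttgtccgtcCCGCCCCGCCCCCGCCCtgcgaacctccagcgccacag
Lgr4 (chr2:109917397-109917646, plus strand): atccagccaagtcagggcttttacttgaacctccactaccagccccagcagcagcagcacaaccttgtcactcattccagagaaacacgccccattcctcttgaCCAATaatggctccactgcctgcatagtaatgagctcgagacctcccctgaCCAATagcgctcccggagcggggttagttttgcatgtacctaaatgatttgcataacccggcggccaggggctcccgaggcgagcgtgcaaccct
Axin2 (chr11:108920099-108920348, plus strand): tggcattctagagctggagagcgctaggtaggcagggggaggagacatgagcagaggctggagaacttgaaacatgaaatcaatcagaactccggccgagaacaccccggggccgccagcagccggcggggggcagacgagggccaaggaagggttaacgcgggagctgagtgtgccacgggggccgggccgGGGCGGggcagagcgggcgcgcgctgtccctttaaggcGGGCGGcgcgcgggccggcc

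None of the 5 windows held the RUNX core in the spelling TGTGGT on either strand, and none held it in the spelling TGCGGT. The AP-1 motif TGANTCA was in none of them either. Over all 32851 promoters in the table, 14.0% held TGTGGT, 5.1% held TGCGGT and 6.75% held TGANTCA in these 250 bases. That says only that these letters are not in this window, and the peaks reach beyond it. At Axin2 the replicate 1 peak begins at -74 relative to the start and the replicate 2 peak at 102. The latter thus covers none of the printed window. CCAAT stood in the windows of Fzd4 (1 match), Fzd7 (2) and Lgr4 (2), and in 33.8% of all promoters. GGGCGG stood in those of Fzd4 (7 matches), Fzd7 (6) and Axin2 (2), and in 32.7% of all, with some of the matches in Fzd4 and Fzd7 overlapping each other. The CCAAT box, the GC box and the second RUNX spelling were added to the search after the sequences had been read. The dinucleotide CG occurred 25 times in the window of Fzd4, 24 in Axin2, 17 in Fzd7, 12 in Fzd1 and 10 in Lgr4, against a median of 6 over all promoters. Higher counts also stood in promoters without a shared region over the start: that of Wnt9a had 48 and those of Wnt4 and Wnt3a had 44 and 41.

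Fzd7 had the widest of these start regions, on chromosome 1 from 59481491 to 59482564. With positions counted in bp from the annotated start, negative before it, the replicate 1 peak of 860 bp ran from -656 to 203. The replicate 2 peak of 839 bp ran from -421 to 417. The whole printed window of Fzd7 thus lay under both peaks. A second shared region lay 37.6 kb upstream, with peaks of 333 and 521 bp.

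At Fzd1 (chromosome 5, 4757689 to 4758582) the replicate 1 peak of 624 bp ran from -211 to 412 and the replicate 2 peak of 894 bp from -366 to 527. A second region, 30.2 kb upstream of Fzd1 and nearer to Cdk14, had peaks of 460 and 558 bp. At Fzd4 (chromosome 7, 89403973 to 89404407) the peaks were narrower, at 329 and 428 bp. They lay almost wholly upstream, from -287 to 41 in replicate 1 and from -393 to 34 in replicate 2. At Lgr4 (chromosome 2, 109917370 to 109917874) the replicate 1 peak of 505 bp ran from -277 to 227 and the replicate 2 peak of 342 bp from -196 to 145. Lgr4 had 2 more regions, 1 of them 26.4 kb upstream at Lin7c, with peaks of 721 and 529 bp, and the other 3421 bp downstream and nearer to Ccdc34, with 435 and 442 bp.

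Fzd2 had no entry in the promoter table, so its region is given relative to its low end. The region, on chromosome 11 from 102603752 to 102604488, covered that end, with peaks of 696 bp in replicate 1 and 474 bp in replicate 2. The other 3 shared regions in its window were 35.8 to 47.9 kb away and nearer to Gpatch8 and Meioc. In these 5 receptor genes each replicate listed a peak at the same end, and neither replicate was the wider in all of them. The region was wider in replicate 1 at Fzd2, Fzd7 and Lgr4 and in replicate 2 at Fzd1 and Fzd4.

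**Figure D3:**
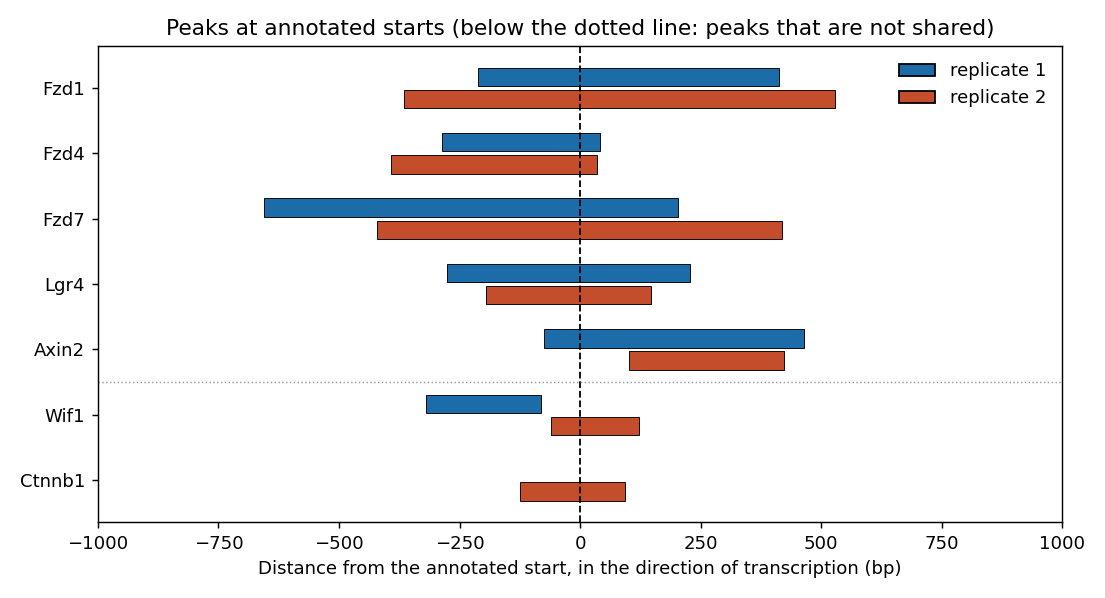
Bars show the extent of each peak relative to the annotated start (bp, in the direction of transcription), with replicate 1 in blue above replicate 2 in red for each gene. In the 5 genes above the dotted line the peaks of both replicates overlap, though the replicate 2 peak of Axin2 begins 102 bp after the start, and below it the peaks of Wif1 lie 21 bp apart and Ctnnb1 has a peak in replicate 2 only.

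Fzd6 and Fzd8 differed from the other frizzled genes in what the replicates listed. Fzd6 had 5 peaks in replicate 2, from 179 to 427 bp wide, and none in replicate 1. Fzd8 had 1 peak in replicate 1, of 244 bp and 544 bp from the gene, and 2 in replicate 2, of 727 and 212 bp, which lay 21.7 and 21.3 kb away. The nearest shared regions were 73.0 kb from Fzd6 and 54.1 kb from Fzd8.

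The LRP coreceptor genes, which are long, had their shared regions inside the gene and in the flanks. LRP5 and LRP6 bind Wnts together with Frizzled, and LRP5 is known from human mutations that lower or raise bone mass. Lrp6 (chromosome 6) had 6 regions, the most of the 36 genes, and 4 of them lay inside it, 22038 to 45465 bp from its nearest end. The widest inside by mean rank, from 134472772 to 134473598, had peaks of 807 and 460 bp. Another, from 134543758 to 134544875, had a peak of 1118 bp in replicate 2 but only 189 bp in replicate 1, the largest gap between replicates in the 64 regions. The 2 regions outside Lrp6 were nearer to Bcl2l14 and Mansc1.

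Lrp5 (chromosome 19) had 3 regions, of which only the 1 from 3638556 to 3639125 lay inside it, with peaks of 478 and 536 bp. The 2 wide ones in its flanks lay across ends of other genes. One, of 919 bp in replicate 1 and 1035 bp in replicate 2, was at Ppp6r3, 8326 bp below Lrp5. The other, of 636 and 828 bp, was at 1810055G02Rik, 21.3 kb above it. Lrp4, which encodes the anchor for the antagonist sclerostin, had 1 region inside, with peaks of 338 and 250 bp, and 1 region 45.7 kb below, nearer to 1110051M20Rik.

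Among the other receptor genes, Ror2 had 3 regions and Lgr5 had none. ROR2 is a receptor tyrosine kinase for WNT5A. All 3 regions of Ror2 lay inside this long gene (176.8 kb), 13697 to 36762 bp from its start on the minus strand. Their peaks were 465, 181 and 295 bp wide in replicate 1, in order from the start, and 225, 629 and 240 bp in replicate 2. A peak of 455 bp in replicate 2 lay 679 bp inside the start of Ror2, and replicate 1 had none there. Lgr5, which encodes an R-spondin receptor known as a stem cell marker, had no peak of either replicate within 50 kb, and its nearest shared region was 65.3 kb away.

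Most secreted antagonist genes had few peaks or none. Dkk1, which encodes the LRP inhibitor that lowers bone formation, had no peak of either replicate within 50 kb, and its nearest shared region was 228.1 kb away, the farthest of the 36. Dkk2 had none either, with the nearest at 109.2 kb. Sfrp1 had 1 peak of replicate 2, of 365 bp, and its nearest shared region was 153.8 kb away. A gene without a listed peak may still carry signal under the calling limit.

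Wif1 was a near miss. WIF1 binds Wnts outside the cell. Replicate 1 had a peak of 238 bp from -319 to -82 relative to the annotated start, and replicate 2 had a peak of 183 bp from -61 to 121. The peaks lay 21 bp apart and so did not count as shared. The next shared region was 54.4 kb away, just outside the window of 50 kb, as was that of Fzd8 at 54.1 kb, whereas those of Wnt4 at 45.8 kb and Nkd2 at 46.9 kb were just inside it.

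Dkk3 and Sfrp2 stood apart from the other antagonist genes with 3 shared regions each. DKK3 is the divergent member of its family and does not bind the LRP coreceptors as DKK1 does. In Dkk3 (chromosome 7), 2 regions lay inside the gene. One, from 112154605 to 112155678, had a peak of 1074 bp in replicate 1 but 401 bp in replicate 2. The other, from 112138241 to 112138794, had peaks of 427 and 391 bp. The third, 42.8 kb above Dkk3 and 22652 bp from Mical2, was 814 bp in replicate 1 and 749 bp in replicate 2.

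Sfrp2, which encodes a secreted Frizzled-related protein of mesenchymal cells, had its 3 regions outside the gene, and no other protein-coding gene end was nearer to any of them. The nearest, on chromosome 3 from 83757472 to 83758192, lay 7.6 kb upstream, with peaks of 614 bp in replicate 1 and 629 bp in replicate 2. Another, 24.9 kb upstream, had peaks of 371 and 545 bp. The one downstream, 15.4 kb away, had peaks of 254 and 854 bp. Sfrp4 had 1 narrow region, of 240 and 199 bp, 31.8 kb away and 341 bp from an end of Epdr1.

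Of the intracellular genes, Axin2 had most regions. AXIN2 is a scaffold of the beta-catenin destruction complex and a widely used direct target of the pathway. Axin2 (chromosome 11) had 5 shared regions, and its own end was the nearest for 4 of them. The 1 from 108920275 to 108920812 covered the annotated start, which lies inside the gene span, and began 2447 bp above the low end. Its replicate 1 peak of 538 bp ran from -74 to 463 relative to the start, while the replicate 2 peak of 321 bp ran from 102 to 422 and so did not reach it. Of the others nearest to Axin2, 1 lay 1398 bp beyond its downstream end, with peaks of 606 and 405 bp. Another lay 13.0 kb beyond that end, with 259 and 440 bp, and the last 19.4 kb upstream, with 650 and 398 bp. The fifth, 30.9 kb upstream of Axin2 and nearer to Cep112, was the widest, at 707 and 802 bp.

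Axin1, which encodes the constitutive scaffold, had 4 regions, of which 3 lay nearer to other genes. Its widest, of 912 bp in replicate 1 and 1185 bp in replicate 2, lay 47.7 kb away across an end of Fam234a. The region inside Axin1 (chromosome 17, 26138340 to 26138741) had peaks of 402 and 387 bp. Nkd2, which encodes an inhibitor of Dishevelled, had 1 narrow region 46.9 kb away, with peaks of 193 and 200 bp. Nkd1, its paralogue, had 2 narrow peaks of replicate 2 inside the gene, of 167 and 229 bp, and none of replicate 1.

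Ctnnb1, the beta-catenin gene, had 2 peaks in each replicate and no shared region within 50 kb. A replicate 2 peak of 219 bp covered its first annotated start, from -125 to 93, and the nearest replicate 1 peak lay 39.8 kb from it. The nearest shared region was 66.1 kb away.

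With the peaks of replicate 2 alone, 11 of the 36 genes had a peak within 1 kb of an end, against 38.3% of all protein-coding genes. With replicate 1 alone 7 of the 36 had, against 38.1% of all. The count of 5 (13.9%, against 33.3% of all) is that for regions listed by both replicates. With either replicate alone the share of the 36 genes was also below that of all protein-coding genes. It came closest to that share with replicate 2. Besides the 5 receptor genes, which were in both, replicate 2 gave Ctnnb1, Ror2, Rspo2, Wif1, Wnt1 and Wnt5a, and replicate 1 gave Fzd8 and Wif1. With replicate 2 alone, 5 of the 7 secreted antagonist genes and 5 of the 5 intracellular genes had a peak within 50 kb, against 76.1% of all protein-coding genes. With replicate 1 alone 4 of the 7 and 4 of the 5 had, against 75.6% of all. So no Wnt ligand gene had a peak near an end in replicate 1, and Wnt1 and Wnt5a had 1 each in replicate 2.

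**Figure D4:**
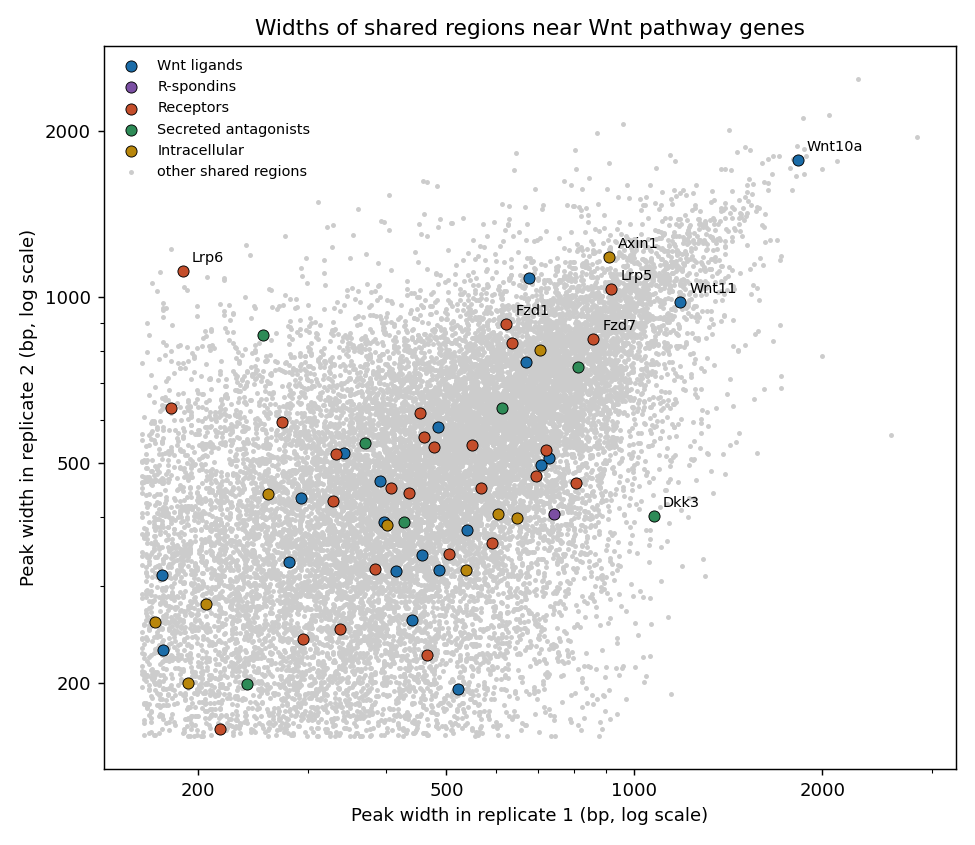
Each point is a shared region, with its widest peak in replicate 1 (bp, log scale) on the x axis and in replicate 2 on the y axis, coloured by role for the 64 regions in the windows and grey for all others. Wnt10a, at 1826 and 1776 bp, lies at the upper end of both axes, and Lrp6 (189 and 1118 bp) and Dkk3 (1074 and 401 bp) lie far from the diagonal.

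By median peak width, the 64 regions were somewhat narrower than shared regions in general. Their median peak width was 462.5 bp in replicate 1 and 447.0 bp in replicate 2, against 495.0 and 499.0 bp for the shared regions of all protein-coding genes. Replicate 1 had the wider peak in 33 regions and replicate 2 in 31. Restricted to peaks above the median width of each list, 18 of the 36 genes had a shared region within 50 kb. This is a smaller share than the 55.6% of all protein-coding genes, whereas with all peaks it was 72.2%, against 69.9% of all. The 6 ligand genes among them were Wnt1, Wnt3a, Wnt10a, Wnt10b, Wnt11 and Wnt16.

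The other genes of the pathway were counted in the same way. Of 50 further genes, 43 (86.0%) had a shared region within 50 kb, against 69.9% of all protein-coding genes. This list was chosen with earlier results of these data known, so the shares are a description only. Within 1 kb of an end 16 (32.0%) had 1, against 33.3% of all, which is near the background. Their own end was the nearest for 25 of the 50 genes, against 45.3% of all. As among the 10 ligand genes above, few of the 9 other Wnt ligand genes had a region at an end: 8 had 1 within 50 kb and only Wnt2b had 1 within 1 kb of an end. Of the 8 other receptor genes, 5 had a region within 50 kb. Only 1 (12.5%) had a region within 1 kb of an end, against 41.7% of the 12 receptor genes above. Of the 4 other frizzled genes, Fzd5 had a region at an end, and Fzd3, Fzd9 and Fzd10 had none within 50 kb. Among the other intracellular genes, 9 of 9 had a region within 50 kb and 6 had 1 at an end, including Gsk3a, Gsk3b and Dvl3. Among nuclear components, 9 of 9 had a region within 50 kb, with 8 at Tcf7l1 and 6 at Tcf7l2. Of the membrane antagonist genes, 4 of 5 had a region, led by the ubiquitin ligase gene Znrf3, which removes Frizzled from the membrane, with 8 and the DKK coreceptor gene Kremen1 with 5. Of the other 6 secreted antagonist genes, 5 had a region, led by Notum, a Wnt deacylase gene, with 6, and Sost, which encodes sclerostin, had 1. Of these 6 genes, Frzb alone was nearest to a shared region, so all regions in the windows of Notum and Sost lay nearer to other genes. Tcf7l2 spans 191.9 kb, Znrf3 168.5 kb, Tcf7l1 162.7 kb and Kremen1 70.2 kb, but Notum only 7.4 kb. The median over all protein-coding genes was 17.2 kb. A longer gene has a larger window, and the part of length in these counts was not tested.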

How the data were processed

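RUNX2 CUT&Tag was run on 2 libraries of MC3T3-E1 cells, replicates of 1 group. GRCm38 (mm10) is the build, and deepTools, Bowtie2 and fastp 0.19.6 were used in roles not stated, per the submitters' processing notes. The peak caller, its threshold and any control were not given in the sources used here. Per library, the authors deposited 1 list with the chromosome, start, end and width of each peak in bp and no score, which limits comparisons to position and width.

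Overlapping peaks of both lists were merged, and regions with peaks of both replicates overlapping by at least 1 bp were called shared. Chromosomes 1 to 19, X and Y held 18128 of them, and the overlap count equalled that of bedtools 2.31.1. Regions were linked to RefSeq gene spans (GRCm38.p6) by the distance between their edges, within 50 kb. The nearest protein-coding gene end was taken for each region. Strand and starts came from RefSeq promoters, held for 20 of the 36 genes. Links were tested on 200 simulated pairs of peaks, planted at or beyond the high end of a gene, inside or outside the 50 kb limit. All 200 were linked or left unlinked as planted. Python 3.11.15, pandas 2.3.3 and scipy 1.17.1 were used.

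The genes and lists were chosen with earlier results of these data known. All 36 genes may be named. The rule gave peak widths for the 4 genes of each role with the best mean rank of width and the 3 with most regions, and those of the other genes were added after their values were seen. Other genes are named as nearest neighbours or as those of the wider pathway list with most regions, the rest of that list being named after their values were seen. No test between groups was possible. Alternatives tried were windows of 10 and 100 kb, a reciprocal overlap of 50%, peaks above the median width of each list, each replicate alone, an end limit of 3 kb, and all annotated genes as nearest. The count of regions over annotated starts was added after the data were seen.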

Additional observations from a re-analysis of the deposited data

How the results depend on the processing

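Of 50 recomputed counts, 39 stayed within 1.5 times the reported one. Restricted to peaks above the median width of each list, the genes with a shared region within 1 kb of an end fell to 3 (Fzd1, Fzd2 and Fzd7). The share of all protein-coding genes was then 21%. The ligand genes with a region within 50 kb fell to 6, against 55.6% of all protein-coding genes. Genes with a region over an annotated start fell to 2, against 19.7% of those in the promoter table. The regions in the windows fell to 29. An end limit of 3 kb gave 8 genes (38.5% of all), adding Axin2, Wnt10a and Wnt10b. The regions in the windows numbered 31 with a window of 10 kb and 106 with 100 kb, which follows from the size of the windows.

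With each replicate alone, where every peak counts, the ranges were 30 to 32 genes within 50 kb (75.6 to 76.1% of all protein-coding genes), 7 to 11 genes near an end (38.1 to 38.3%), 28 to 32 genes nearest to a region (53.9 to 54.5%), 95 to 112 regions, 10 ligand genes in both, 10 to 11 receptor genes, 4 to 5 secreted antagonist genes, 4 to 5 intracellular genes and 5 to 6 genes with a peak over a start (30.2% with either). In each range the higher value came from replicate 2 alone, apart from the ligand genes. No paired analysis was possible because the series has a single group. The lists hold no reads, so depth limits of single peaks cannot be given.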
